A study of Mus musculus with 3 samples.

Results

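The MHC class I and peptide loading genes described here are 10 named genes of 27998 in the deposited matrices, chosen by symbol and not by their values: H2-K1, H2-D1, B2m, H2-Q6, H2-Q7, H2-T22, H2-T23, Tap1, Tapbp and Nlrc5. They were read in 3 single-cell libraries of myeloid cells, 1 library per group, from mice with subcutaneous B16-F10 melanoma, a transplantable tumor line of C57BL/6 origin. The groups were a Treg-depleted tumor (treatment treg-depleted, title FoxP3 DTR, the allele that places a diphtheria toxin receptor in cells expressing Foxp3), a control tumor and control blood, the last 2 titled WT. The strain is labelled C57BL/6J in all 3. Sorted cells were CD45+ CD90- NK1.1- Ly6G- B220- SigF- and carried CD11b, CD11c or both. The agent used for depletion, the number of animals behind each library, pooling and dates are not given in the sources used here, so depletion, the DTR allele, the animal and the library cannot be told apart. Each value below is therefore a description of single libraries, and the brackets hold 95% counting intervals, which say nothing of how animals differ.

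Class I molecules carry short peptides from the cell's own proteins to the surface, where CD8 T cells and NK cell receptors read them. The classical heavy chains H2-K and H2-D, encoded by H2-K1 and H2-D1, present to CD8 T cells. The less polymorphic nonclassical heavy chains include the Qa-2 antigen of H2-Q6 and H2-Q7, Qa-1 of H2-T23, which is read by CD94/NKG2 receptors, and H2-T22, which is bound by some gamma delta T cell receptors. B2m encodes the light chain beta-2-microglobulin, which most class I heavy chains need to reach the surface. Tap1 encodes a subunit of the transporter that brings peptides into the endoplasmic reticulum, Tapbp encodes tapasin, which bridges that transporter to empty class I molecules, and Nlrc5 encodes a transactivator of class I genes. Interferons and NF-kB signalling are known inducers of most of these genes in myeloid cells.

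In GENCODE M21 (GRCm38) all 10 are protein coding, and 8 lie on chromosome 17, with H2-K1 at 33996017 to 34000347, H2-D1 at 35262730 to 35267499 and the other heavy chains between 35424850 and 36042747. B2m lies on chromosome 2 at 122147686 to 122153083 and Nlrc5 on chromosome 8 at 94434356 to 94527272. RefSeq promoter windows (GRCm38.p6, 250 bases before to 50 after the annotated start) were held for 9 of the 10, all but Nlrc5. The 6 windows shown are those of the classical pair, of the near-identical H2-Q6 and H2-Q7, and of B2m and H2-T23, whose values the comparisons below turn on. Capitals mark matches to a palindromic NF-kB motif (GGGGA and TCCCC with any 1 base between), an NF-kB motif of another form (GGGA and TTTCC with any 1 base between) or an interferon-stimulated response element, ISRE (GAAA and GAAA with any 2 bases between), on either strand.
H2-K1 promoter (chr17:34000298-34000597, minus strand): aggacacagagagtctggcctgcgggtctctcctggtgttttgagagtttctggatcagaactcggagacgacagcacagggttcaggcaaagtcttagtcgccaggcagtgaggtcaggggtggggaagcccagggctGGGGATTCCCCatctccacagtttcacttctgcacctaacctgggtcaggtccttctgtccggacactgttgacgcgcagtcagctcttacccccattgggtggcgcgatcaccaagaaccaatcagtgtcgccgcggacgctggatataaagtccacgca
H2-D1 promoter (chr17:35262844-35263143, plus strand): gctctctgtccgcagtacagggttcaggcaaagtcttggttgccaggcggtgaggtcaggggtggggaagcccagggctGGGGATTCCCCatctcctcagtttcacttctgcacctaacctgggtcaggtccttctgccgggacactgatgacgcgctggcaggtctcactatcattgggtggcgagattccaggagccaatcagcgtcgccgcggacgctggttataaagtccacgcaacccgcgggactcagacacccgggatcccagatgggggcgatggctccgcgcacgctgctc
H2-Q6 promoter (chr17:35424600-35424899, plus strand): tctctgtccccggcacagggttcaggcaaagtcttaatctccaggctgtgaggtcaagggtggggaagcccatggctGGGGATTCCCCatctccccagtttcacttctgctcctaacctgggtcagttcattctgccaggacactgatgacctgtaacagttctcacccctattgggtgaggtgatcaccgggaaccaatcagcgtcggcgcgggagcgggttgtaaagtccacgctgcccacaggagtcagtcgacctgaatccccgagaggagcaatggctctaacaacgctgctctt
H2-Q7 promoter (chr17:35438905-35439204, plus strand): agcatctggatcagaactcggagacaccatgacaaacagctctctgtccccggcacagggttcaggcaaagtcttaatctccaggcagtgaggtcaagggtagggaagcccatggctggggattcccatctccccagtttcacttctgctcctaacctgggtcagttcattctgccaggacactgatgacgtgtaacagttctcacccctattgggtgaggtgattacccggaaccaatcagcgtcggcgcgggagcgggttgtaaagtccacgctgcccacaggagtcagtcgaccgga
B2m promoter (chr2:122147437-122147736, plus strand): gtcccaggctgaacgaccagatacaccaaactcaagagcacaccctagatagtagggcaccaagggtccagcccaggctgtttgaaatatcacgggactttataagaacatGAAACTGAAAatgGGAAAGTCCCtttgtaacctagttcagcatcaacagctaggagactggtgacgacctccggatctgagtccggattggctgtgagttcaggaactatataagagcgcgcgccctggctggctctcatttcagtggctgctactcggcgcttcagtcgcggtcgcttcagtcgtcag
H2-T23 promoter (chr17:36032652-36032951, minus strand): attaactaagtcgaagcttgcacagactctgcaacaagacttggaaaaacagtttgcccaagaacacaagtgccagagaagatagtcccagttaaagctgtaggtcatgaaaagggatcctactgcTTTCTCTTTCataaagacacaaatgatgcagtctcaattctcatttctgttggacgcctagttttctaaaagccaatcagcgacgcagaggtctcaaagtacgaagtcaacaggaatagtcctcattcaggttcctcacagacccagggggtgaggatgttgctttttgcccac

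The NF-kB palindrome was found in H2-K1, H2-D1 and H2-Q6, starting 111, 171 and 173 bases before their annotated starts, and in 16 of 32851 promoter windows of all genes (0.0487%). H2-Q7 held no match to it, although 97.3% of 261 aligned columns were identical between the H2-Q6 and H2-Q7 windows. H2-K1 and H2-D1 were 90.4% identical over 228 aligned columns. An ISRE was found in B2m, H2-T22 and H2-T23, 3 of the 9 windows, against 3.44% of all windows. B2m alone of the 9 also held the other NF-kB motif (0.411% of all windows), and the 2 motifs did not overlap there. No window of the 9 held a STAT motif of the letters TTCNNNGAA (8.30% of all). A CCAAT box, CCAAT or its complement, was in all 9 (37.4% of all windows) and a CRE core, TGACG or its complement, in 6 of 9 (20.8%); boxes resembling these belong to the conserved module through which NLRC5 acts. A match is a stretch of letters and not evidence of binding. Only the exact letters given were sought, so a window without a match may still hold a variant form of the motif.

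Cells were kept with 1000 or more unique molecules (UMIs), 400 or more genes and a mitochondrial share of UMIs no higher than 10%, which left 4434 cells of the Treg-depleted tumor, 4443 of the control tumor and 5550 of control blood. Their median depths were 3820, 6452 and 3550 UMIs in that order, and the libraries held between 22944387 and 42493416 UMIs. Cell types were gated on marker genes. A cell was monocyte-gated or macrophage-gated when at least 20 of each 10000 UMIs came from the marker list, and cells passing both gates were kept as a class of their own. These 3 classes together, the monocyte-to-macrophage cells, numbered 3259 in the Treg-depleted tumor (1721 monocyte-gated, 1078 passing both gates, 460 macrophage-gated) and 3432 in the control tumor (1382, 771 and 1279). The gates cut a continuous range: 840 (25.8%) and 600 (17.5%) of these cells had a score between 15 and 25. In blood, 3333 cells were monocyte-gated. Libraries shared 27 to 36 kept barcodes by pair, near the 26.7 to 33.4 that independent draws from the kit would give. In the macrophage gate the 10 macrophage markers summed to 4319 CPM (UMIs of a gene or list scaled to 1000000 UMIs of the class) in the Treg-depleted tumor and 12009 CPM in the control tumor, so cells of that gate differed in marker level between the tumors. Of the markers of cells the sort removes, B cell, T cell and NK cell lists summed to at most 4.7 CPM each in the monocyte-to-macrophage cells of either tumor, and B16 melanoma markers to 6.1 and 16.8 CPM in the Treg-depleted and the control tumor. Neutrophil markers summed to more in these cells, at 236.5 CPM in the Treg-depleted and 59.2 CPM in the control tumor.

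The 10 genes took 1.63% of the UMIs of kept cells in the Treg-depleted tumor, 1.54% in the control tumor and 1.24% in control blood. The first comparison asks how these genes differed in tumor myeloid cells with and without Treg depletion. In monocyte-to-macrophage cells of the Treg-depleted tumor, H2-K1 was higher and H2-D1 lower than in the control tumor, and B2m, the Q genes, H2-T23 and Nlrc5 were higher. The counting interval of the ratio lay above 0 for 9 genes, against 30.9% of all genes tested, and below 0 for H2-D1, against 34.6%. That of H2-T22 lay barely above it (0.08, 0.0017 to 0.15) and reached 0 with another UMI minimum, doubled gate thresholds, 10% free RNA subtracted, or a total without mitochondrial and the 50 top genes. Only H2-Q6 was at least 2-fold higher, 1 of 10 against 7.37% of 10937 genes with at least 20 UMIs in either tumor, and none was at least 2-fold lower, against 8.76% of those genes. The median log2 ratio was 0.29 over the 10 genes and −0.06 over all those genes. These pooled values mix classes held in different proportions by the tumors. By class the median of the 10 was 0.45 in monocyte-gated cells, 0.05 in cells passing both gates and 0.36 in macrophage-gated cells. Over all genes tested it was −0.02, 0.02 and −0.02. In monocyte-gated cells 7 intervals lay above 0 and 2 below, against 27.1% and 28.6% of all genes.

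H2-K1 and H2-D1, the classical heavy chains, stood on opposite sides. H2-K1 was at 2149.9 CPM (2126 to 2174) in the Treg-depleted tumor and 1699 CPM (1684 to 1713) in the control tumor, a log2 ratio of 0.34 (0.32 to 0.36). H2-D1 was at 2909.6 CPM (2882 to 2938) in the Treg-depleted tumor and 4357 CPM (4334 to 4381) in the control tumor, a log2 ratio of −0.58 (−0.60 to −0.57). Neither ratio is extreme among all genes: that of H2-D1 stood at percentile 20.04 and that of H2-K1 at percentile 72.6. The 2 genes had opposite signs in every type that both tumors held in at least 50 cells. The labels give 1 strain for all libraries, and the H2 alleles carried by the FoxP3 DTR mouse were not read here, so a difference in allele or in how reads were assigned to these genes cannot be told apart from one in expression. The log2 ratio of H2-K1 was 0.48 (0.44 to 0.51) in monocyte-gated cells, 0.23 (0.20 to 0.27) in cells passing both gates, 0.39 (0.34 to 0.43) in macrophage-gated cells, 0.27 (0.17 to 0.37) in type 2 conventional dendritic cells (cDC2) and 0.11 (0.02 to 0.19) in the CCR7 dendritic cell gate. For H2-D1 it was −0.50 (−0.52 to −0.48), −1.01 (−1.05 to −0.98), −0.85 (−0.89 to −0.80), −0.66 (−0.73 to −0.58) and −0.89 (−0.97 to −0.81) in the same order. In cells passing both gates H2-D1 was thus at least 2-fold lower, at 2334 CPM in the Treg-depleted tumor and 4715 CPM in the control tumor, 1 of 10 genes against 7.43% of all genes there, and none was 2-fold higher, against 10.1%. None of the 10 was 2-fold apart in cDC2 (6.35% of genes higher, 8.46% lower) or in the CCR7 dendritic gate (5.67% higher, 9.98% lower). Control tumor cells of the CCR7 dendritic gate carried a median of 25.6 macrophage marker UMIs per 10000 and those of the Treg-depleted tumor 13.8, and the part of this difference in the values of that gate was not tested.

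**Figure D1:**
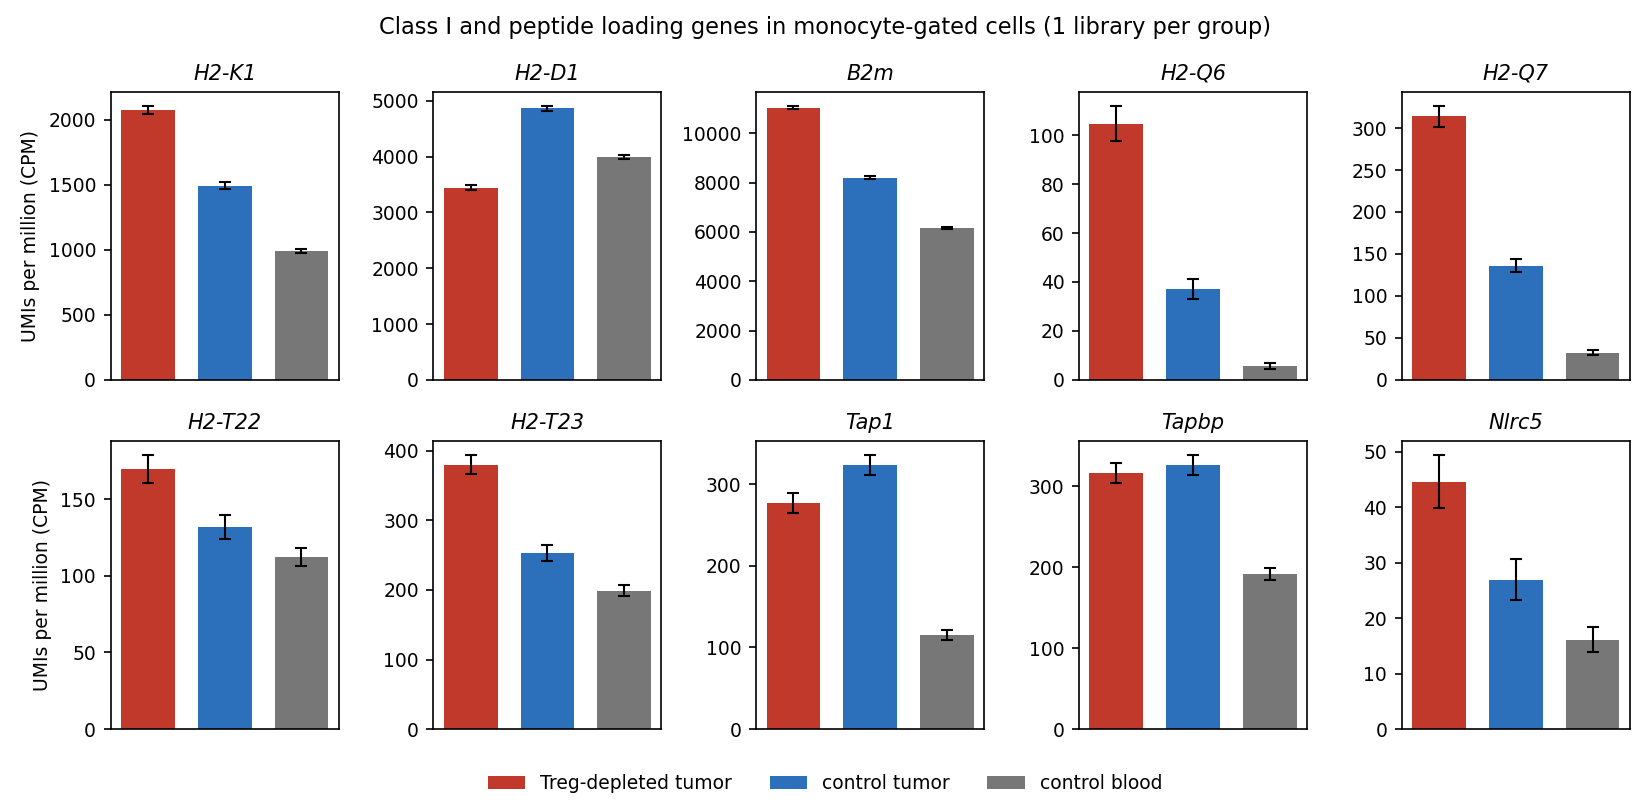
Level of each of the 10 genes in monocyte-gated cells, in CPM (vertical axes from 0), for the Treg-depleted tumor, the control tumor and control blood, 1 library each, with 95% Poisson counting intervals. H2-K1, B2m, the Q genes, H2-T22, H2-T23 and Nlrc5 were highest in the Treg-depleted tumor, while H2-D1 and Tap1 were highest in the control tumor. Tapbp was near equal between the tumors and lowest in blood.

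The balance of the pair can be read without any scaling, as the share of H2-K1 among the UMIs of both genes. It compares cells, not the 2 genes, whose transcripts may be captured unequally. In monocyte-to-macrophage cells that share was 42.5% (42.1 to 42.9) in the Treg-depleted tumor and 28.0% (27.8 to 28.3) in the control tumor, 14.4 percentage points apart. In monocyte-gated cells it was 37.6% (37.2 to 38.1) in the Treg-depleted tumor, 23.5% (23.1 to 23.9) in the control tumor and 19.9% (19.6 to 20.2) in control blood. Macrophage-gated cells had 50.6% (49.6 to 51.7) in the Treg-depleted tumor and 30.4% (30.0 to 30.7) in the control tumor, cDC2 had 38.9% (37.0 to 40.8) and 25.1% (24.3 to 25.9), and the CCR7 dendritic gate 47.9% (46.1 to 49.7) and 31.6% (30.7 to 32.4). All classes of the Treg-depleted tumor with at least 50 cells, neutrophils at 35.4% included, lay above all named classes of the control tumor, of which the CCR7 dendritic gate was highest. Within single cells thinned to 1000 UMIs and holding at least 4 UMIs of the pair, H2-K1 outnumbered H2-D1 in 38.5% of 2190 monocyte-to-macrophage cells of the Treg-depleted tumor, 9.06% of 2736 of the control tumor and 3.45% of 2288 monocyte-gated cells of blood. Barcodes of 1 to 100 UMIs, which hold mostly RNA free in the suspension, showed the same order of libraries, at 44.0%, 31.3% and 24.7%. With 10% of each class subtracted as such free RNA, the 2 tumors stood 14.7 points apart.

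**Figure D2:**
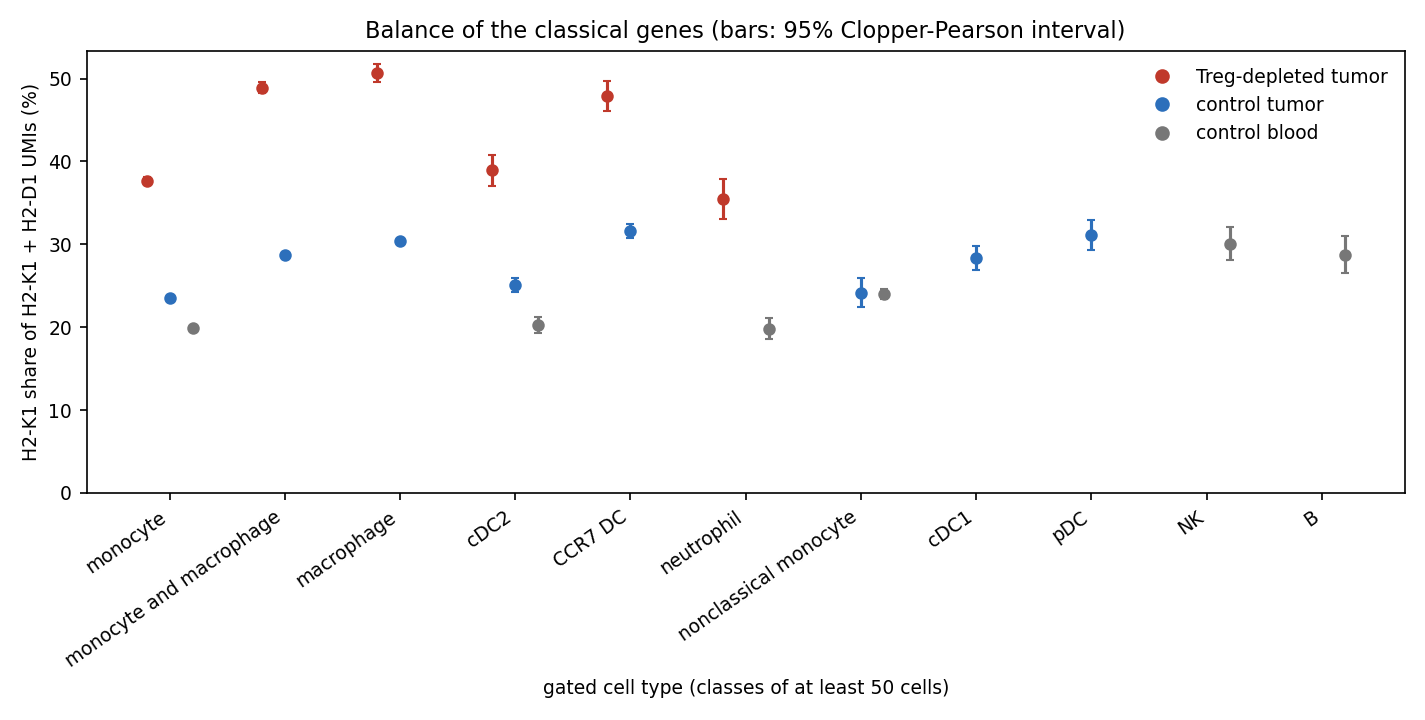
Share of H2-K1 among H2-K1 plus H2-D1 UMIs (vertical axis, percent) in each gated cell type with at least 50 cells, for the Treg-depleted tumor, the control tumor and control blood. Bars are 95% Clopper-Pearson intervals, and every Treg-depleted point, from 35.4% to 50.6%, lies above every point of the control tumor, of which the highest is 31.6%.

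The H2-K1 share also moved with the number of UMIs in a cell. In monocyte-gated cells of the Treg-depleted tumor it was 57.5% in 257 cells of 1000 up to 2000 UMIs, 47.0% from there up to 3500, 37.4% up to 5000, 32.6% up to 8000 and 36.4% in 139 cells of 8000 or more. Monocyte-gated cells of the control tumor had 31.8% in 26 cells of the lowest range and then 22.4%, 21.1%, 23.6% and 26.2%. Those of blood had 25.5% in 83 cells of the lowest range and between 19.3% and 20.7% in the others. Among monocyte-gated cells the shallowest thus had the largest H2-K1 share in all 3 libraries, and in each range the Treg-depleted tumor was highest. For the control tumor the interval of the lowest range (24.6 to 39.7) overlapped that of the deepest (25.4 to 26.9). Macrophage-gated cells of the Treg-depleted tumor had 64.8%, 59.8%, 52.3%, 47.5% and 40.7% from the lowest to the highest range, and those of the control tumor between 30.0% and 38.5% with no steady order. Over the monocyte-to-macrophage cells of the Treg-depleted tumor, H2-K1 was at 3384 CPM in the lowest range and 1695 CPM in the highest, whereas H2-D1 was at 2094 and 2715 CPM. Their median mitochondrial share was 3.39% in the lowest range and 2.64% in the highest, and its part in the pattern was not tested. In cells of 2000 to 5000 UMIs alone, a window chosen after seeing the data, the log2 ratio of H2-K1 between the tumors was 0.61 (0.57 to 0.65) and that of H2-D1 was −0.79 (−0.82 to −0.76).

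**Figure D3:**
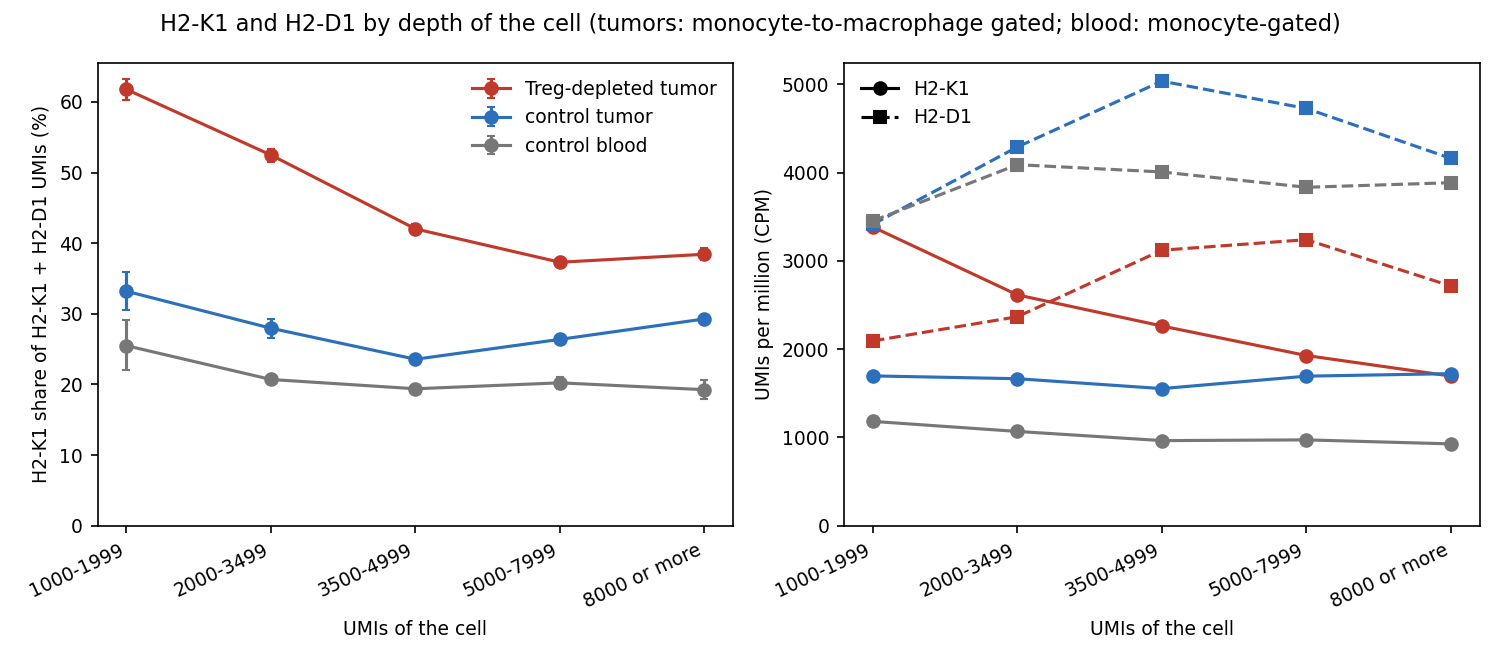
H2-K1 share of H2-K1 plus H2-D1 UMIs (percent) by UMIs per cell, in monocyte-to-macrophage cells of the 2 tumors and monocyte-gated cells of blood, with 95% Clopper-Pearson intervals. In the Treg-depleted tumor the share is 61.8% in the shallowest range and 38.4% in the deepest, and in every range it is above the control tumor, which is above 28.0% only in the shallowest and deepest ranges.

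B2m, the light chain, was at 10023 CPM (9971 to 10075) in monocyte-to-macrophage cells of the Treg-depleted tumor and 8435 CPM (8403 to 8468) in the control tumor, a log2 ratio of 0.25 (0.24 to 0.26). Among the gated types compared, the difference was largest in the monocyte gate. There B2m was at 11039 CPM in the Treg-depleted tumor and 8204 CPM in the control tumor (0.43, 0.41 to 0.44). B2m was also higher in the Treg-depleted tumor, by less, in cDC2 and in macrophage-gated cells (0.14, 0.12 to 0.16 in the latter). Its ratio was slightly negative in cells passing both gates (−0.03, −0.05 to −0.02) and in the CCR7 dendritic gate (−0.12, −0.16 to −0.07). Per UMI of the 6 heavy chain genes there were 1.69 B2m UMIs (1.67 to 1.70) in monocyte-to-macrophage cells of the Treg-depleted tumor and 1.27 (1.26 to 1.28) in the control tumor. In monocyte-gated blood cells there were 1.16 (1.14 to 1.17). The lower H2-D1 count of the Treg-depleted tumor enters this ratio. In cells passing both gates, where the B2m log2 ratio was slightly negative, there were 1.62 B2m UMIs in the Treg-depleted and 1.21 in the control tumor. In the CCR7 dendritic gate there were 1.41 and 1.13.

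The nonclassical genes stood higher against the classical ones in the Treg-depleted tumor. H2-Q6, H2-Q7, H2-T22 and H2-T23 together made up 14.9% (14.6 to 15.1) of heavy chain UMIs in its monocyte-to-macrophage cells and 8.88% (8.76 to 9.01) in the control tumor, 5.98 points apart. The share was nearly the same across the 3 gated classes of the Treg-depleted tumor, at 14.9% in monocyte-gated cells, 14.7% in cells passing both gates and 14.9% in macrophage-gated cells. In the control tumor these classes had 8.07%, 9.85% and 8.86%. The Treg-depleted tumor was also higher in cDC2, with 12.7% (11.6 to 14.0) against 8.42% (7.94 to 8.92), and in the CCR7 dendritic gate, with 15.6% (14.4 to 16.8) against 11.5% (10.9 to 12.0). The lower H2-D1 count enters this share: the 4 nonclassical genes summed to 883 CPM in the Treg-depleted and 590.5 CPM in the control tumor, and the classical pair to 5059 and 6056 CPM. By class, the nonclassical sum was 968 CPM in the Treg-depleted and 558 CPM in the control tumor for monocyte-gated cells, 774 and 549.8 CPM for macrophage-gated cells, and 658 and 533 CPM for cDC2. It was close between the tumors in cells passing both gates, at 789.5 and 722 CPM, and in the CCR7 dendritic gate, at 942 and 932 CPM. There the gap in share went with the classical sum, at 4564 CPM in the Treg-depleted and 6612 CPM in the control tumor for cells passing both gates, and 5097 and 7191 CPM for the CCR7 dendritic gate.

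**Figure D4:**
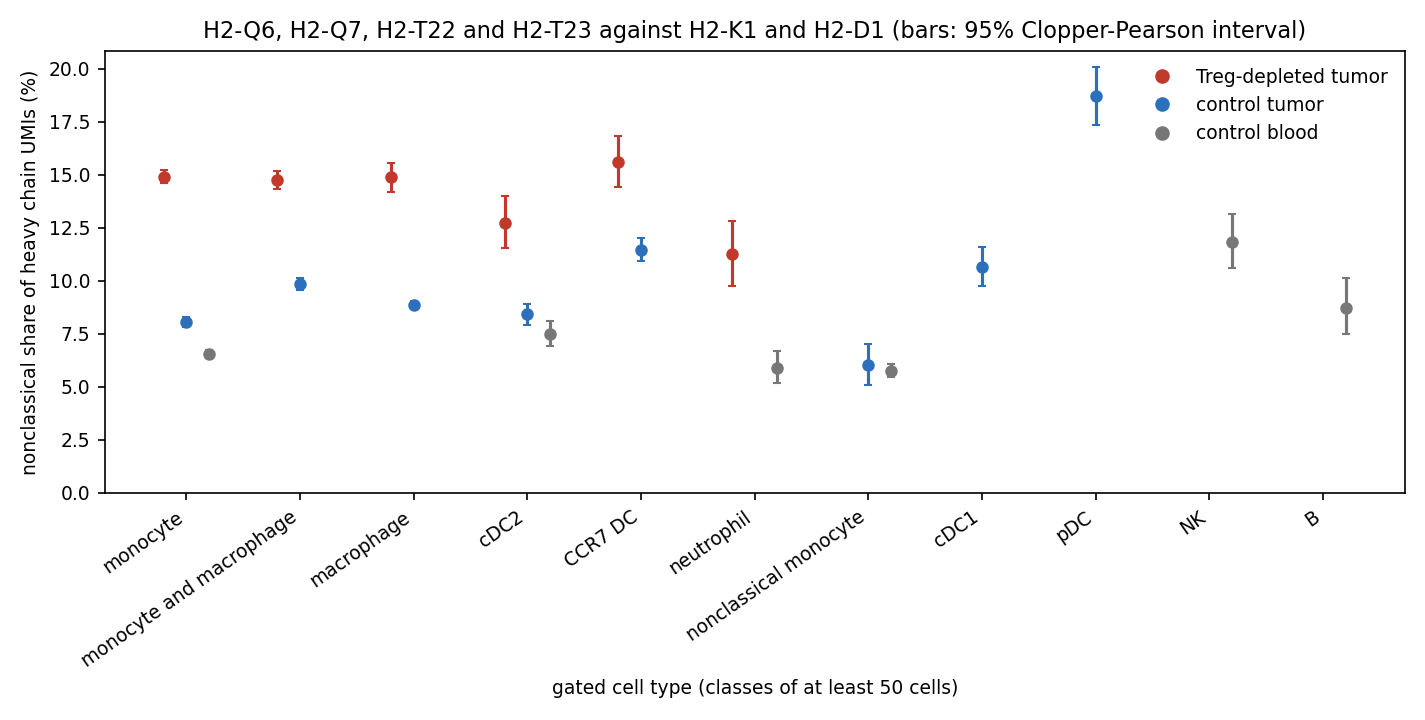
Share of H2-Q6, H2-Q7, H2-T22 and H2-T23 among the UMIs of 6 class I heavy chain genes (vertical axis, percent) in gated cell types of at least 50 cells, by library, with 95% Clopper-Pearson intervals. Monocyte-gated cells stand at 14.9% in the Treg-depleted tumor, 8.07% in the control tumor and 6.55% in control blood, and plasmacytoid dendritic cells of the control tumor at 18.7%.

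H2-Q6 and H2-Q7, the Qa-2 genes, accounted for most of the difference in the nonclassical CPM sum in monocyte-gated cells. Over all monocyte-to-macrophage cells, a wider set, the difference in share was 3.49 points without them and 5.98 points with them. The difference in share without them was not taken in monocyte-gated cells alone. H2-Q6 was at 105 CPM (97.4 to 112) in monocyte-gated cells of the Treg-depleted tumor, 36.9 CPM (32.9 to 41.4) in the control tumor and 5.55 CPM (4.35 to 6.98) in blood. H2-Q7 was at 314 CPM (301 to 327) in the Treg-depleted tumor, 136 CPM (128 to 145) in the control tumor and 32.5 CPM (29.5 to 35.8) in blood. Both were thus highest in the Treg-depleted tumor and lowest in blood, and the intervals did not overlap. Between the tumors, 2 of the 10 genes were at least 2-fold higher in monocyte-gated cells of the Treg-depleted tumor, H2-Q6 (log2 1.50, 1.31 to 1.70) and H2-Q7 (1.204, 1.10 to 1.31), against 8.95% of all genes tested there, and none was 2-fold lower, against 5.43%. In macrophage-gated cells H2-Q6 (1.10, 0.85 to 1.35) and Nlrc5 were at least 2-fold higher, 2 of 10 against 9.83% of genes, with none 2-fold lower against 10.3%, while H2-Q7 was at 0.42 (0.28 to 0.55). In cells passing both gates the Q genes differed little, with H2-Q6 at 67.6 CPM in the Treg-depleted and 51.7 CPM in the control tumor (0.39, 0.16 to 0.61) and H2-Q7 at 264 and 241 CPM (0.13, 0.02 to 0.23). In the CCR7 dendritic gate they were not higher in the Treg-depleted tumor. There they made up 52.5% of a nonclassical sum of 942 CPM, and 58.5% of 932 CPM in the control tumor. In cDC2 they made up 41.7% of 658 CPM in the Treg-depleted and 31.4% of 533 CPM in the control tumor. After thinning every cell to 1000 UMIs, H2-Q7 was counted in 28.0% (25.9 to 30.2) of monocyte-gated cells of the Treg-depleted tumor, 12.1% (10.4 to 13.9) of the control tumor and 2.88% (2.34 to 3.51) of blood; unthinned, the shares were 66.1%, 39.9% and 10.0%. No sorted cell type lacks class I, so a type without the gene could not serve as the background. In near-empty barcodes H2-Q7 was at 441, 270.0 and 97.0 CPM and H2-Q6 at 76.8, 39.2 and 19.5 CPM in the same order of libraries. With 10% of each class subtracted as free RNA, the log2 ratios between the tumors in monocyte-to-macrophage cells were 1.11 for H2-Q6 and 0.57 for H2-Q7, beside 1.10 and 0.59 without it.

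Counts of the 2 Q genes depend on how reads were assigned between near copies. Of 60-base stretches in the last 500 bases of their transcripts, 38.0% of those of H2-Q6 occur in another gene, most of them in H2-Q7, and 9.86% of those of H2-Q7 occur in H2-Q5, which has no row in the matrices. The same holds for 51.2% of those of H2-T22, shared with H2-T10, also without a row, and for 30.2% of those of H2-T23, shared with genes that include Rab33b, Hook2 and H2-T-ps. The shares were 4.69% for H2-K1 and 3.56% for H2-D1, and 0 for B2m and Nlrc5. H2-Q6, H2-Q7, H2-T22 and H2-T23 are therefore uncertain as single genes.

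The T region genes behaved unlike each other. H2-T23, the Qa-1 heavy chain, was higher in the Treg-depleted tumor in all 3 gated classes, at 380 CPM (366 to 394) in monocyte-gated cells against 253 CPM (242 to 264) in the control tumor, with log2 ratios of 0.59 (0.51 to 0.67) there, 0.41 (0.31 to 0.51) in cells passing both gates and 0.71 (0.58 to 0.84) in macrophage-gated cells. In cDC2 its interval reached 0 (0.23, −0.03 to 0.49). H2-T22 was higher in monocyte-gated cells of the Treg-depleted tumor, at 169 CPM against 132 CPM in the control tumor (0.36, 0.24 to 0.48). It was lower in cells passing both gates, at 114 CPM against 171 CPM (−0.58, −0.73 to −0.43), and near equal in macrophage-gated cells (−0.05, −0.25 to 0.14).

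**Figure D5:**
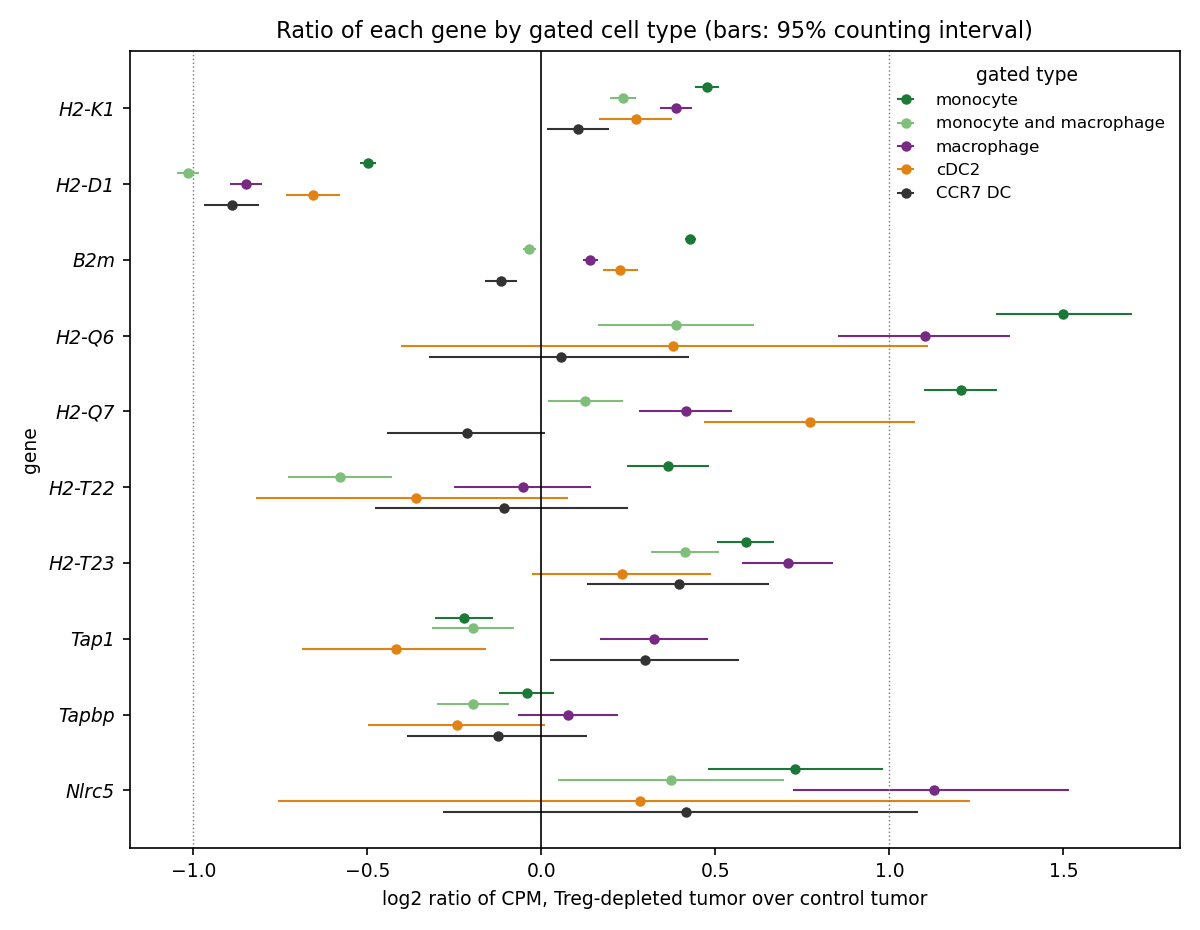
Log2 ratio of CPM, Treg-depleted tumor over control tumor, for each of the 10 genes and each gated type compared, with 95% counting intervals and a line at 0. H2-D1 lies below 0 in every type, from −0.50 to −1.01, and H2-K1 above 0, from 0.11 to 0.48. Other genes, Tap1, Tapbp, H2-T22 and B2m among them, fall on both sides.

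The peptide loading genes differed little between the tumors, and the sign of Tap1 depended on the class. Tap1 was at 277 CPM (265 to 289) in monocyte-gated cells of the Treg-depleted tumor and 323 CPM (311 to 336) in the control tumor, a log2 ratio of −0.22 (−0.31 to −0.14). In macrophage-gated cells it was at 199 CPM against 159 CPM (0.32, 0.17 to 0.48). Its ratio over all monocyte-to-macrophage cells, 0.15 (0.09 to 0.21), is thus a mix of classes held in different proportions by the tumors, and it was −0.29 (−0.40 to −0.18) in cells of 2000 to 5000 UMIs. Tapbp was at 317 CPM in monocyte-gated cells of the Treg-depleted tumor and 326 CPM in the control tumor (−0.04, −0.12 to 0.04), and at 229 and 217 CPM in macrophage-gated cells (0.08, −0.07 to 0.22). Its ratio over all monocyte-to-macrophage cells, 0.12 (0.06 to 0.17), is likewise a mix of classes. Nlrc5, the transactivator, was higher in the Treg-depleted tumor at 44.5 CPM (39.9 to 49.5) against 26.8 CPM (23.4 to 30.7) in monocyte-gated cells (0.73, 0.48 to 0.98), and in macrophage-gated cells at 35.4 CPM against 16.2 CPM (1.13, 0.72 to 1.52). In cells of 2000 to 5000 UMIs its ratio over all monocyte-to-macrophage cells was 0.33 (0.01 to 0.65), beside 0.91 (0.74 to 1.07) without that limit. It was counted in 4.47% (3.55 to 5.56) of thinned monocyte-gated cells of the Treg-depleted tumor and 3.04% (2.20 to 4.09) of the control tumor. Near-empty barcodes held Nlrc5 at 74.2 CPM in the Treg-depleted tumor, 35.2 CPM in the control tumor and 35.1 CPM in blood.

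Other genes of the pathway, in lists drawn up by function, gave no common direction between the tumors in monocyte-to-macrophage cells. Unless a class is named, single-gene ratios here are for these pooled cells, and mix classes held in different proportions by the tumors. Of 11 regulators, 7 had an interval above 0 and 4 below, against 30.9% and 34.6% of all genes, with a median log2 ratio of 0.26. In monocyte-gated cells alone 3 lay above 0 and 4 below, with a median of −0.10, against 27.1% of all genes above and 28.6% below there. The interferon signalling genes Stat2 (0.96, 0.80 to 1.11) and Irf2 (0.93, 0.83 to 1.04) were higher in the Treg-depleted tumor. Irf1, an activator of class I genes, was near equal in monocyte-gated cells, at 295 CPM in the Treg-depleted and 290.0 CPM in the control tumor (0.03, −0.06 to 0.11), and higher in macrophage-gated cells, at 269 against 109 CPM (1.31, 1.16 to 1.45). Relb, an NF-kB subunit (−0.82, −0.96 to −0.69), and Rfxank, a subunit of the factor that binds class I and II promoters (−0.78, −1.23 to −0.35), were lower. Of 6 genes of peptide loading and editing, with a median of −0.02 (−0.24 in monocyte-gated cells, where 1 lay above 0 and 4 below), the chaperone Canx was higher (0.42, 0.37 to 0.48) and the loading complex members Pdia3 (−0.56, −0.61 to −0.52) and Calr (−0.50, −0.53 to −0.46) were lower. Of 5 immunoproteasome and PA28 genes, with a median of 0.10, 4 had an interval above 0, against 30.9% of all genes. None of those 4 reached a log2 ratio of 0.2. Psmb8 was lower (−0.38, −0.41 to −0.35), with 34.6% of all genes below 0. By class, 3 of the 5 lay above 0 and 1 below in monocyte-gated cells. In cells passing both gates 0 lay above and 3 below, and in macrophage-gated cells 1 above and 1 below. Of 14 other class I and class I-like genes, 11 had a row and 9 at least 20 UMIs, with a median of 0.01. Fcgrt, the heavy chain of the neonatal Fc receptor, was lower at 23.6 CPM against 68.1 CPM (−1.53, −1.70 to −1.36). H2-Q10, whose near copies were not examined, was higher (1.38, 0.96 to 1.81), and H2-M2 was counted 3 times in the Treg-depleted tumor and 38 times in the control tumor (−2.58, −4.92 to −0.93).

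The second comparison, control tumor against control blood, asks how these genes differed between monocytes in the tumor and in the circulation. All 10 were higher in monocyte-gated cells of the control tumor, each with an interval above 0, against 23.4% of all genes tested there (53.6% lay below 0). H2-Q6 (log2 2.74, 2.36 to 3.13), H2-Q7 (2.07, 1.90 to 2.23) and Tap1 (1.49, 1.40 to 1.58) were at least 2-fold higher, 3 of 10 against 11.8% of 10127 genes, and none was 2-fold lower, against 27.4%. The median log2 ratio was 0.67 over the 10 genes and −0.44 over all those genes. Scaled to the median of gene ratios instead, which moved all genes by 0.34, the median of the 10 was 1.00.

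Tap1 stood at 323 CPM (311 to 336) in the control tumor and 115 CPM (109 to 121) in blood. H2-K1 was at 1493 CPM (1466 to 1520.1) in the control tumor and 991 CPM (974 to 1008) in blood, a log2 ratio of 0.59 (0.56 to 0.63), and H2-D1 at 4862 CPM (4814 to 4911) and 3993 CPM (3959 to 4027), a ratio of 0.28 (0.27 to 0.30). Both classical genes were thus higher in the tumor, and the H2-K1 share differed by 3.61 points. Tapbp (0.77, 0.69 to 0.85), Nlrc5 (0.74, 0.46 to 1.02) and B2m (0.41, 0.40 to 0.43) followed, and H2-T23 (0.35, 0.26 to 0.43) and H2-T22 (0.23, 0.12 to 0.35) differed least besides H2-D1. Nonclassical genes made up 8.07% (7.84 to 8.30) of heavy chain UMIs in the control tumor and 6.55% (6.36 to 6.73) in blood, 1.52 points apart. Without the Q genes, or in cells of 2000 to 5000 UMIs, that gap was −0.17 (−0.43 to 0.10) and 0.18 (−0.24 to 0.59) points. The Q genes made up 31.0% of nonclassical UMIs in the control tumor and 10.9% in blood.

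Nonclassical monocytes, the patrolling CX3CR1-high subset, and cDC2 were held by both libraries. In nonclassical monocytes, 77 cells of the control tumor and 1098 of blood, Tap1 (1.87, 1.55 to 2.19) and Nlrc5 (1.52, 0.47 to 2.46) were at least 2-fold higher in the tumor, against 8.12% of genes, H2-Q6 was not (0.56, −0.21 to 1.26), and none was 2-fold lower, against 26.4%. In cDC2, 256 and 375 cells, Tap1 (1.52, 1.28 to 1.76), H2-Q6 (2.90, 1.69 to 4.41), H2-Q7 (1.63, 1.25 to 2.03) and Nlrc5 (1.36, 0.36 to 2.49) were, 4 of 10 against 13% of genes (894 of 6879), and none was 2-fold lower, against 21.5%. H2-Q6 rested there on 6 UMIs in blood and Nlrc5 on 11. The nonclassical monocytes of the control tumor held 255187 UMIs in all, and the Nlrc5 interval for that type is wide.

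Among pathway genes, all 6 of peptide loading and editing and all 5 immunoproteasome and PA28 genes had intervals above 0 in monocyte-gated cells of the control tumor against blood, with medians of 0.57 and 0.42, beside the 23.4% of all genes that did. Calr (1.15, 1.09 to 1.21), Tap2, the partner of Tap1 (1.05, 0.93 to 1.17), and Psme2 (1.06, 1.01 to 1.11) were at least 2-fold higher. Irf1 was at 290.0 CPM in the control tumor and 56.6 CPM in blood (2.36, 2.24 to 2.48), and Relb at 94.1 and 25.1 CPM (1.91, 1.72 to 2.10). Irf2 (−1.01, −1.15 to −0.88) and Rfxank (−1.05, −1.59 to −0.53) were lower. Of other class I genes H2-Q4 was higher (1.63, 1.44 to 1.82) and Hfe, an iron regulator, lower (−1.87, −2.08 to −1.66). The control tumor enters both comparisons, so their ratios are not independent.

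Across cell types the genes were not graded together. H2-D1 was highest in nonclassical monocytes, at 6779 CPM (6464 to 7107) in the control tumor and 5795 CPM (5707 to 5884) in blood, and lowest in macrophage-gated cells of the Treg-depleted tumor, at 2188 CPM (2123 to 2254). H2-K1 was highest in plasmacytoid dendritic cells of the control tumor, 57 cells, at 2611 CPM (2434 to 2799), followed by the CCR7 dendritic gate of the Treg-depleted tumor at 2442 CPM (2319 to 2569.9), whose interval overlapped. It was lowest in blood neutrophils at 864 CPM (801 to 930) and cDC2 at 918 CPM (871 to 967), which also overlapped. B2m was highest in neutrophils (11098 CPM, 10681 to 11528) and monocyte-gated cells (11039 CPM) of the Treg-depleted tumor, and lowest in cDC2 of blood (4678 CPM, 4570.4 to 4787) and in NK cells that had passed the sort (4787 CPM, 4548 to 5035). H2-Q7 ranged more widely, with 998 CPM (889 to 1116) in plasmacytoid dendritic cells, 502 CPM (426 to 586) in NK cells and 32.5 CPM in monocyte-gated cells of blood. In blood the Q genes made up 68.1% of nonclassical UMIs in NK cells, 43.0% in nonclassical monocytes and 10.9% in monocyte-gated cells. H2-T23 was also highest in plasmacytoid dendritic cells, at 554 CPM (474 to 644). Nlrc5 was highest in neutrophils of the Treg-depleted tumor, at 87.4 CPM (54.1 to 134) from 21 UMIs. Those neutrophils, 106 cells, had a median of 1785 UMIs. Neutrophil markers summed to 311 CPM in monocyte-gated cells of the Treg-depleted tumor, 110 CPM in the control tumor and 488 CPM in blood, and the part of this in the values above was not tested.

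Over the 20 library-by-type classes, which share 3 libraries, the log2 levels of H2-K1 ran with those of H2-Q7 (Pearson r 0.91), H2-Q6 (0.90), Nlrc5 (0.79) and B2m (0.72), and not with H2-D1 (0.07). H2-D1 had no r above 0.27 with any of the other 9. H2-T23 ran closest with Tapbp (0.86). Among 2638 other genes with a mean of at least 50 CPM, those among the most like the sum of the classical pair over these classes were Emd, Eif5, Wapl and Ube2d2a (0.70 to 0.68). Those most like the sum of the 4 nonclassical genes were Dnajb1 (0.81), Runx3, Scimp, Spty2d1 and Il21r (0.77 to 0.76). These values describe 20 classes and carry no test.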

How the data were processed

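Single-cell libraries of sorted myeloid cells were made with the 10x Chromium 3' v2 kit, per the labels' protocols, and processed with Cell Ranger 1.2 against mm10, per the submitters' processing notes. The deposited matrices hold UMI counts as whole numbers, unit count, for 27998 genes and all 737280 kit barcodes, so cells were called anew. Counts of a class were summed and divided by its total UMIs (CPM). Log2 ratios carry exact Poisson (conditional binomial) intervals and shares Clopper-Pearson intervals, both at 95%. With 1 library per group no test was made, and at least 2-fold is used as the call among genes with at least 20 UMIs in either class. Intervals cover counting error only.

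Cell types were gated on the summed marker UMIs per 10000 UMIs of a cell, with thresholds set after the marker scores, not the values of the 10 genes, had been seen (monocyte and macrophage 20 with 2 markers, nonclassical monocyte 30 with 3, neutrophil 100 with 3, B and NK 20 with 2, pDC 15, cDC2 15 and cDC1 6 with 2, CCR7 DC 15 with 3). Cells passing several exclusive gates were left out, and doublets were not removed otherwise. The ungated cells were 789 in the Treg-depleted tumor, 333 in the control tumor and 60 in blood. Scripts were checked on simulated data. The genes, lists and alternatives were chosen with earlier results of these data known. All 10 genes are named, with the 2 highest and 2 lowest ratios of each pathway list and comparison; Irf1 between the tumors was added after its values were seen. Of the genes most like the classical pair across cell types, 1 is not reported here. Of 36 listed pathway genes, 33 had a row. Alternatives were another UMI minimum, a mitochondrial limit of 5%, removal of cells by Scrublet score (scanpy 1.11.5), doubled gate thresholds, median-ratio scaling, subtraction of 10% free RNA and per-cell means. Cells of 2000 to 5000 UMIs, leaving out the Q genes and a total without the 50 top genes were added after seeing the data. Python 3.11.15, numpy 2.4.6, scipy 1.17.1 and pandas 2.3.3 were used.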

Additional observations from a re-analysis of the deposited data

Results flagged for a closer look

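Between the tumors, 3 genes had ratios of opposite sign in different cell types with counting intervals on opposite sides of 0. The log2 ratio of B2m, Treg-depleted over control tumor, was 0.43 in monocyte-gated cells and −0.12 in the CCR7 dendritic gate. That of H2-T22 was 0.36 in monocyte-gated cells and −0.58 in cells passing both the monocyte and the macrophage gate. That of Tap1 was 0.32 in macrophage-gated cells and −0.42 in cDC2. Each type came from 1 library per group, so the differences between types were not tested.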

How the results depend on the processing

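The H2-K1 ratio stayed above 0 and the H2-D1 ratio below 0 between the tumors under all 9 alternatives run for each (0.27 to 0.61 and −0.79 to −0.50), and the difference in H2-K1 share ran from 12.97 to 21.6 points. The median log2 ratio of the 10 genes between the tumors, 0.29, was 0.36 as a mean of per-cell CPM, 0.39 in cells of 2000 to 5000 UMIs, 0.20 without the Q genes and 0.22 over a total without mitochondrial and the 50 top genes. The nonclassical share difference between the tumors, 5.98 points, was 5.51 with the stricter gate, 6.25 with 10% free RNA subtracted, 6.27 as a per-cell mean, 7.70 in cells of 2000 to 5000 UMIs and 3.49 without the Q genes. Between control tumor and blood, the median of 0.67 was 1.00 under median-ratio scaling and 0.50 without the Q genes. The nonclassical share difference there, 1.52 points, was 1.21 with the stricter gate, 1.15 as a per-cell mean, 0.18 in cells of 2000 to 5000 UMIs and −0.17 without the Q genes. Single genes changed sign in 4 cases: Tap1 between the tumors (−0.044 as a per-cell mean, −0.29 in cells of 2000 to 5000 UMIs), and, in cells of 2000 to 5000 UMIs, Tapbp between the tumors (−0.033) and H2-T22 between control tumor and blood (−0.094). The cause was not tested. Of 232 values under alternatives, 150 moved by less than the counting interval. No paired analysis was possible because each group has 1 library. Few UMIs per cell limit single-cell shares of Nlrc5 and H2-Q6, and classes of under 150 cells limit the dendritic cell values.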
